A study of Mus musculus with 75 samples.

Results

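The genes described here are 9 genes of the oligodendrocyte, the myelin-forming glial cell, measured in nuclei that were sorted as neuronal: Mbp, Mobp, Mog, Mag, Cnp, Cldn11, Mal, Olig1 and Olig2. They were chosen by symbol, all 9 of 9 were found among the 55401 gene identifiers of the count table, and all 9 passed the low-count filter in every fit. Nuclei came from nucleus accumbens tissue. The male mice had LSL-eGFP::L10a, a Cre-dependent green fluorescent ribosomal protein, together with D1-Cre or D2-Cre, which direct it to cells that use the gene of the D1 or the D2 dopamine receptor. Mice had saline or cocaine (20 mg/kg, intraperitoneal) on each of 10 days, 30 days of withdrawal in the home cage, and a saline or cocaine challenge 1 h before the tissue was taken. In group names the line is followed by a letter for the repeated injection and 1 for the challenge (S, saline; C, cocaine). There were 10 libraries of D1_SS, 9 of D1_SC, 8 of D1_CS, 10 of D1_CC, 9 of D2_SS, 9 of D2_SC, 10 of D2_CS and 10 of D2_CC, 75 in all. The labels do not say whether a library was 1 mouse or a pool, so p-values measure the spread between libraries, which may be technical. Nothing in the labels states an age, and no unsorted tissue or glial fraction is among the samples used here.

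Oligodendrocytes wrap axons in myelin, a compacted stack of membrane that speeds conduction, and the nucleus accumbens is crossed by myelinated fibre bundles, so their nuclei lie in any punch of this tissue. Olig1 and Olig2 are basic helix-loop-helix transcription factors of the lineage, and Olig2 also acts in precursor cells. Mbp, Mobp and Mal encode proteins of compact myelin and its membrane domains, Mag and Mog encode immunoglobulin-family proteins at the myelin surface, Cldn11 encodes the claudin of myelin tight junctions, and Cnp encodes a phosphodiesterase of the uncompacted myelin cytoplasm. Medium spiny neurons, the cells that the sort was aimed at, are not known for using these genes at a high level.

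The sequences before 3 start sites are shown because Mobp and Mog moved together across libraries on the CPM scale and Cnp followed them less, as described further on. They come from RefSeq (GRCm38.p6), which held an entry for 7 of the 9 genes. Each window runs 5′ to 3′ from 250 bases before the RefSeq start and ends before the GENCODE gene body. Capitals mark matches to ACAAAG, the core bound by SOX factors, or to its reverse complement CTTTGT. The Mobp window is chr9:120149492-120149706 on the forward strand, the Mog window is chr17:37023399-37023648 on the reverse strand, and the Cnp window is chr11:100574689-100574903 on the forward strand.
Mobp: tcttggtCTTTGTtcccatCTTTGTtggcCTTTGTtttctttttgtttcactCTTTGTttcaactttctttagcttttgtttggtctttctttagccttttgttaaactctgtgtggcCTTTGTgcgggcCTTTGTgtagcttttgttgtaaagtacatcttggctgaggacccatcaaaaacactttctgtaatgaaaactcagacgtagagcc
Mog: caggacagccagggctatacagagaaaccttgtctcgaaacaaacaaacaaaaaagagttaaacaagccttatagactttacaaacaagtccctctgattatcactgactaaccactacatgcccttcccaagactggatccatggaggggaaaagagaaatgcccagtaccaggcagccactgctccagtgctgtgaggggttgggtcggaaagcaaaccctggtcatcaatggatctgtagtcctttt
Cnp: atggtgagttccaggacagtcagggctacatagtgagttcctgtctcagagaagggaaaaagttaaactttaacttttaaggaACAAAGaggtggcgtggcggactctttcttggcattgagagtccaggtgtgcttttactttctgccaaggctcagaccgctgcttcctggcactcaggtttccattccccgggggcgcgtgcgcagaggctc
Mobp held 6 matches, all to CTTTGT, at 243, 231, 221, 198, 132 and 120 bases before the start. Cnp held 1 match to ACAAAG at 167 bases, and Mog held none. On either strand this motif was held by 16.5% of 27025 RefSeq promoters over 250 bases, and by 14.5% over 215 bases, the length of the Mobp and Cnp windows. The E-box letters CAGCTG (12.8% of promoters), a motif that reads the same on both strands, and CAGATG (14.5%) were not found in the 7 windows. The letters TATAAA (13.0%) were found in that of Olig2, and Mag also held the SOX core. A match to these letters is a description and not a site of binding.

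In mm10 the genes lie on 8 chromosomes, and all 9 are protein-coding in GENCODE M21. On the forward strand are Mbp (ENSMUSG00000041607.17, chr18:82475146-82585637), Mobp (ENSMUSG00000032517.16, chr9:120149707-120181484), Cnp (ENSMUSG00000006782.16, chr11:100574904-100591729), Cldn11 (ENSMUSG00000037625.7, chr3:31149920-31164324), Olig1 (ENSMUSG00000046160.6, chr16:91269772-91271933) and Olig2 (ENSMUSG00000039830.9, chr16:91225457-91228677). On the reverse strand are Mog (ENSMUSG00000076439.12, chr17:37010743-37023398), Mag (ENSMUSG00000036634.15, chr7:30899176-30914873) and Mal (ENSMUSG00000027375.14, chr2:127633226-127656695). Counts were taken over whole gene spans, introns included, and 5 of the genes share bases with another gene. Cnp shares the most, 8912 bases or 53.0% of its span, with Dnajc7 on the opposite strand. The sources used here do not state whether counting used strand, so reads of Cnp and Dnajc7 cannot be told apart there, and the Cnp values carry that limit throughout. Across 71 libraries Spearman's rho between the CPM of Cnp and Dnajc7 was 0.52. Mobp shares 2447 bases (7.70%) with Gm38642 on the same strand, and Olig1 shares 157 bases (7.26%) with Gm15966 on the opposite strand.

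Depth and sort quality set what can be read from these genes. The median library held 14893119 counts and the range was 19825 to 34870414. The 3 libraries with under 100000 counts (D2_CC 10, D2_CS 6 and D2_CS 9) are in the tests but not in the levels, which therefore rest on 72 libraries. A quality rule on depth, genes detected, receptor ratio and correlation failed 17 libraries. In the D1 line these were 3 of 9 in D1_SC, 2 of 8 in D1_CS and 3 of 10 in D1_CC. In the D2 line they were 2 of 9 in D2_SC, 5 of 10 in D2_CS and 2 of 10 in D2_CC. In either SS group 0 failed. Drd1 and Drd2, the receptors that name the lines, went against the label in 16 of 37 libraries labelled D1, which held more Drd2 than Drd1, and in 0 of 35 labelled D2. By group these were 2 of 10 in D1_SS, 6 of 9 in D1_SC, 4 of 8 in D1_CS and 4 of 10 in D1_CC. The receptor ratio of the quality rule was cut at the midpoint of the line medians, not at equal levels. Libraries such as D1_SC 3, 4 and 6 and D1_SS 8 and 9 therefore passed the rule with more Drd2 than Drd1. Reads also fell on olfactory and vomeronasal receptor genes, which brain nuclei are not known to use. Their density, spread evenly over all gene spans, would make up 45.2% ± 12 of the counts in D1_SS (SD), 22.4% ± 17.6 in D1_SC, 56.3% ± 19.7 in D1_CS and 45.4% ± 21.6 in D1_CC. In the D2 line it was 43.3% ± 17.5, 33.1% ± 20.3, 33.9% ± 20.5 and 39.9% ± 20.2 in the same order.

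The lineage factors were the least abundant of the 9 genes per library and ranged most widely. Olig1 had a median of 1.64 CPM (counts per 1000000 of the library's total), from 0 in 3 libraries to 87.5 in D2_SC 1. Olig2 had a median of 1.91 CPM, from 0 in 1 library to 54.3 in D2_CS 3. Most libraries thus held a few CPM of either factor, and single libraries held far more. In D2_SC 1 the Olig1 value rested on 232 counts (95% Wilson interval 76.9 to 99.5 CPM, for counting error only), while Olig2 stood at 0.38 CPM in the same library. In D2_CS 3 the Olig2 value rested on 131 counts (45.7 to 64.4 CPM) and Olig1 stood at 9.53 CPM. The highest libraries of the 2 factors were therefore different ones.

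Mbp, of compact myelin, was the most abundant. It had a median of 95.7 CPM and a range of 42.4 to 264, Mobp a median of 22.4 and a range of 2.62 to 192, and Mal a median of 17.3 and a range of 1.54 to 133. Among the genes of other myelin domains, Cnp had a median of 21.6 CPM (8.78 to 90.6), Cldn11 of 8.73 (0 to 40.2), Mag of 7.09 (0.56 to 36.0) and Mog of 6.49 (0 to 54.5). Per kilobase of gene span the order changed, since Mbp spans 110 kb. On the deposited FPKM scale the medians were 1.29 for Cnp, 0.87 for Mbp, 0.76 for Olig1, 0.74 for Mal, 0.71 for Mobp, 0.61 for Cldn11, 0.59 for Olig2, 0.51 for Mog and 0.45 for Mag. The span counts introns, so this is a density over the gene and not over its mature RNA.

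**Figure D1:**
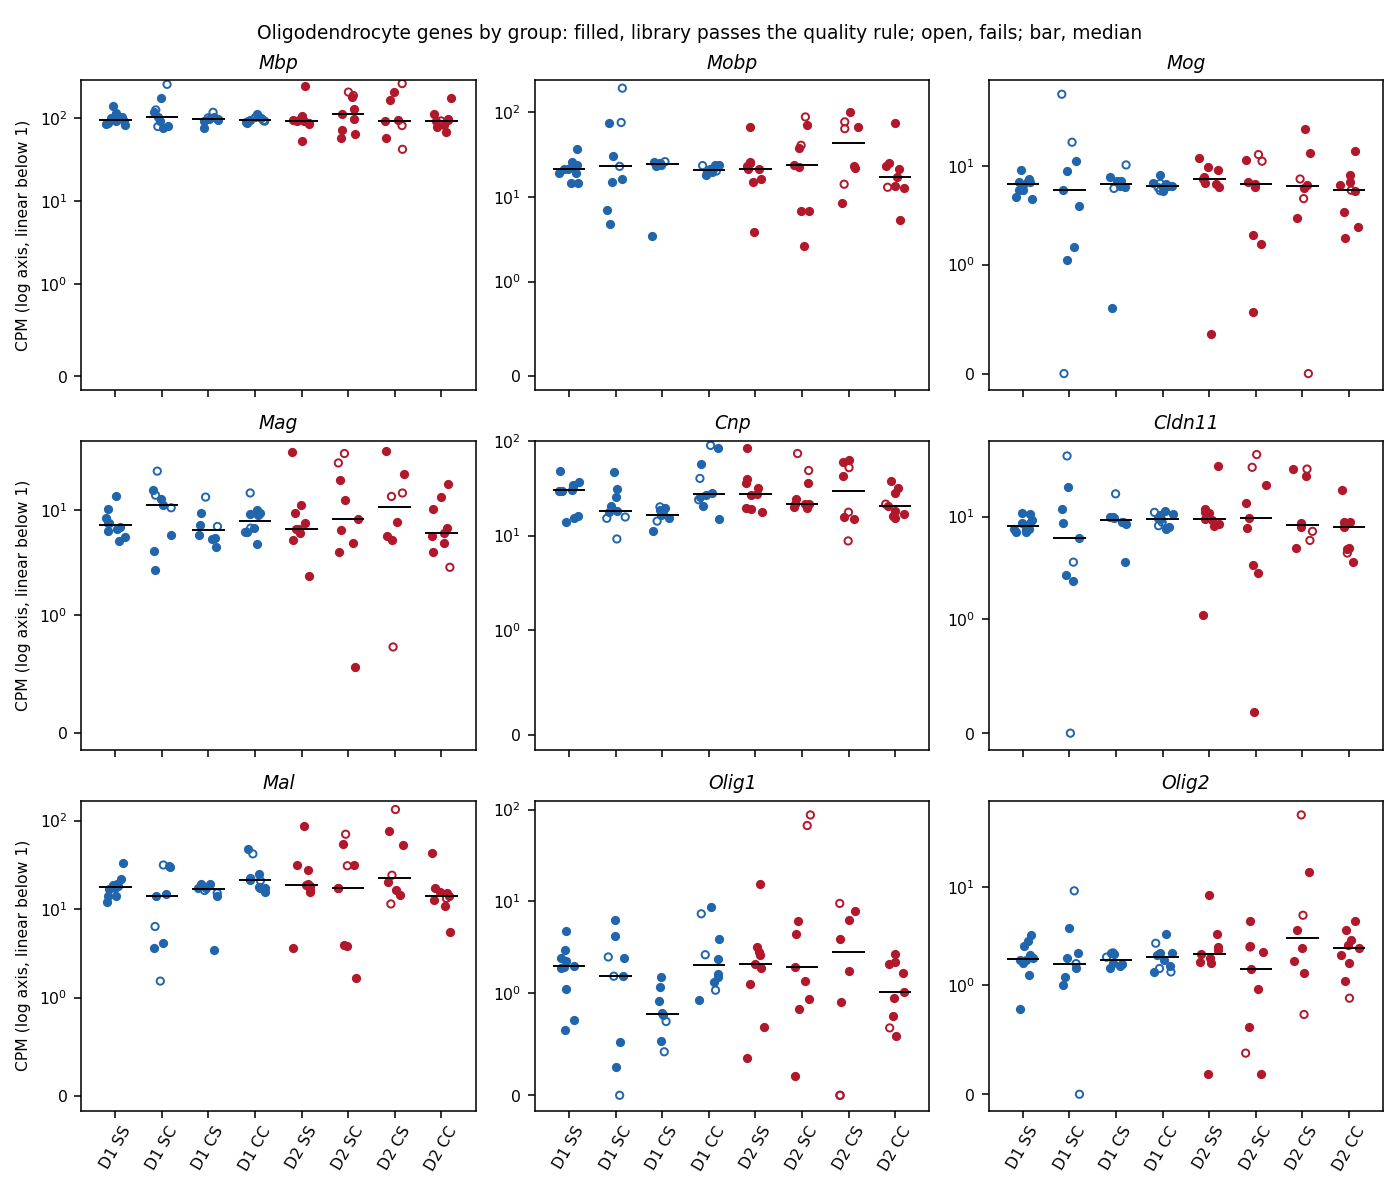
CPM (log axis, linear below 1) of the 9 oligodendrocyte genes in 72 libraries by group, with D1 groups in blue and D2 groups in red, 1 point per library, open points for libraries that failed the quality rule and a bar at the group median. Group medians lie close together for Mbp and Mog and further apart for Mobp (17.1 to 43.6 CPM) and Olig1 (0.80 to 2.80). Single libraries stand far above them, such as Mobp at 192 CPM in D1_SC and Olig1 at 87.5 in D2_SC.

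Group medians differed little beside the spread inside groups. The medians of Mbp lay between 93.4 CPM (D2_CC) and 114 (D2_SC), and those of Mog between 5.72 (D1_SC) and 7.52 (D2_SS). For Cldn11 they lay between 6.23 CPM (D1_SC) and 9.68 (D2_SC), and for Mag between 6.06 (D2_CC) and 11.1 (D1_SC). Mobp had group medians from 17.1 CPM (D2_CC) to 43.6 (D2_CS), Mal from 14.1 (D2_CC) to 22.3 (D2_CS), Olig2 from 1.47 (D2_SC) to 3.04 (D2_CS), and Cnp from 16.7 (D1_CS) to 30.1 (D1_SS). Olig1 had the lowest group median in D1_CS, at 0.80 CPM (0.43 to 1.50), and the highest in D2_CS, at 2.80 (0 to 9.53). D2_CS had the highest median for 4 genes, Mobp, Mal, Olig1 and Olig2, and D1_SC for Mag alone. In D2_CS the 8 Mobp values ran from 8.56 to 100 CPM, so that neighbours in these orders do not differ beyond the spread of their libraries.

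Much of the signal of several genes lay near what an even density of background reads would give. The ratio of the count to that expectation had a median of 1.49 for Mog, 1.58 for Mag, 1.66 for Olig2, 1.94 for Cldn11, 2.06 for Mobp, 2.30 for Mal, 2.99 for Mbp, 3.05 for Olig1 and 4.85 for Cnp. For the receptor genes themselves, pooled over libraries, 90% of genes lay between 0.43 and 1.90. For 130 taste receptor, keratin-associated and beta-defensin genes, which did not set the background, the summed ratio had a median over libraries of 1.35 and a range of 0.29 to 2.31. The medians of Mog, Mag, Olig2, Cldn11, Mobp and Mal lie inside that range, which is a spread over libraries and not over genes. The medians of all 9 genes lie above its median of 1.35. Beside the range of single receptor genes, Mog, Mag and Olig2 lie under its upper end of 1.90, and Cldn11, Mobp and Mal lie above it. Mag was under 1 in 18 of 72 libraries, Olig1 in 15, Mog in 9 and Olig2 in 6, and Mbp, Mobp and Cnp in 0. A ratio over 5 was reached by Cnp in 35 libraries, Olig1 in 23, Mbp in 21 and Mog in 7. Expressed as a share, the background would account for a median of 66.3% of the Mog value, 63.1% of that of Mag and 20.6% of that of Cnp.

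The ratio divides by the same receptor read density that sets the background share, so a fall of the ratio with the share is built into it. D1_CC 3, which had the lowest share, 3.66%, had ratios of 192 for Cnp, 121 for Olig1, 64.1 for Mal, 33.0 for Mag and 30.0 for Mbp. Those of Cnp and Mag were the highest of any library, while Olig2 (274), Mal (92.5), Mbp (38.9) and Cldn11 (32.8) peaked in D2_CS 3, Olig1 (229) in D2_SC 1, Mobp (49.9) in D1_SC 5 and Mog (35.4) in D1_SC 9. D1_SC, the group with the lowest mean background share, had median ratios of 7.30 for Mbp, 5.36 for Mobp and 4.70 for Mag. These were 2.76, 2.01 and 1.37 in D1_SS, 2.09, 1.62 and 1.24 in D1_CC, and 1.95, 1.57 and 1.01 in D1_CS.

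**Figure D2:**
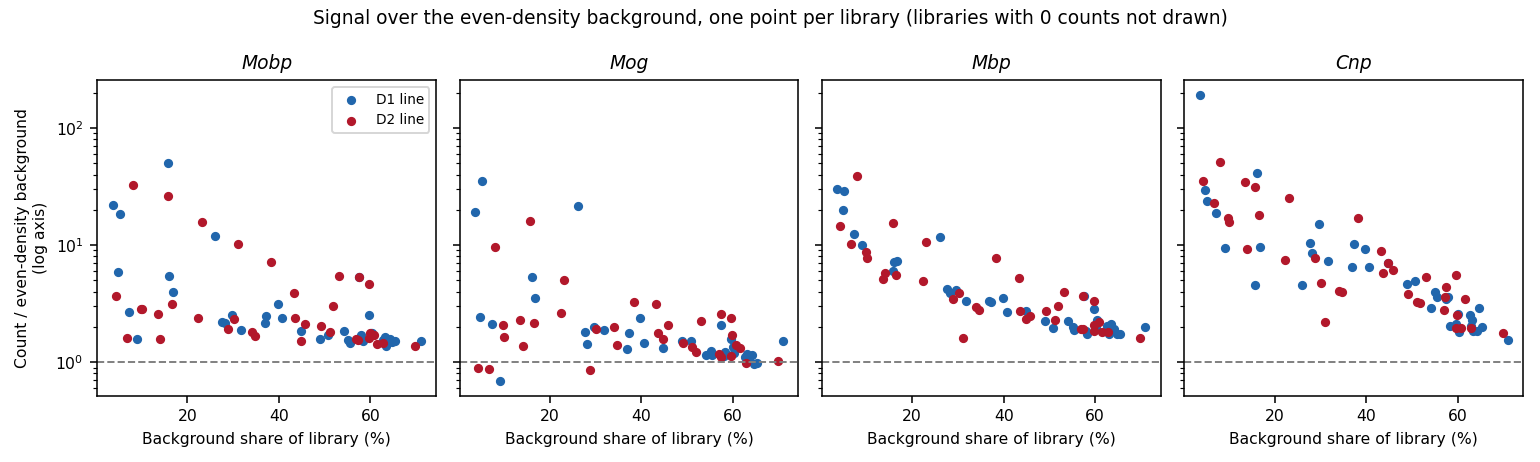
Ratio of the count to an even-density background (log axis) against the background share of the library (%), 1 point per library, for Mobp, Mog, Mbp and Cnp, with the dashed line at a ratio of 1 and libraries with 0 counts not drawn. The density that sets the share is also the divisor of the ratio, so ratios fall as the share rises by construction, and Cnp reaches 192 in the library with a share of 3.66%.

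A cocaine challenge after repeated saline was compared with saline alone in the libraries labelled D1, of which 6 of 9 in D1_SC and 2 of 10 in D1_SS held more Drd2 than Drd1. Of the 9 genes, 4 rose in D1_SC against D1_SS, Mbp, Mobp, Mog and Mag, and 0 fell, where 11.3% of the 37721 genes tested were called, 9.7% higher and 1.64% lower. The fitted log2 change was 0.84 ± 0.19 for Mbp (SE, adjusted p = 0.0050), 1.69 ± 0.41 for Mobp (adjusted p = 0.0073), 1.35 ± 0.43 for Mog (adjusted p = 0.0356) and 0.98 ± 0.31 for Mag (adjusted p = 0.0339). The other 5 genes did not pass, with 0.72 ± 0.33 for Cldn11 (adjusted p = 0.132), 0.83 for Olig2 (0.0852), 0.43 for Olig1 (0.595), 0.12 for Cnp (0.850) and 0.08 for Mal (0.892). The median of the 9 changes was 0.83, against -0.07 over all genes tested.

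The values by library show how unevenly this came about. Mobp ran from 4.74 to 192 CPM in D1_SC with a median of 22.9, and from 14.5 to 36.9 in D1_SS with a median of 21.3. The medians nearly coincide, and 5 of 9 D1_SC libraries lay above the D1_SS mean. The library labelled D1_SC 5 carried the 192 CPM of Mobp on 125 counts (Wilson interval 161 to 229 CPM) in a library of 651445 counts. The same library listed 0 counts of Mog, Cldn11 and Olig2, which allows up to 5.90 CPM of each, and held 79.8 CPM of Mbp and 9.21 of Cnp, its Drd2 above its Drd1. Mag stood at 13.8 CPM, about the D1_SS highest of 13.5. The 30 other oligodendrocyte and myelin genes summed to 919 CPM, with 11 of them at 0 counts, against 536 to 861 in D1_SS. High Mobp thus stood beside a sum of other myelin genes above the D1_SS range, and beside Mog, Cldn11 and Olig2 without a count.

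Mog ran from 0 to 54.5 CPM in D1_SC with a median of 5.72, and from 4.66 to 9.17 in D1_SS with a median of 6.66. The median was lower in the group that was called higher, and 4 of 9 libraries lay above the D1_SS mean. The 54.5 CPM (161 counts) were in the library labelled D1_SC 1, which also held 258 CPM of Mbp, 75.5 of Mobp, 38.9 of Cldn11, 23.4 of Mag and 9.14 of Olig2, but 0 counts of Olig1 (up to 1.301 CPM). Its summed level of 12 astrocyte genes was 896 CPM, against a D1_SS range of 231 to 447. Mbp ran from 76.0 to 258 CPM in D1_SC (median 103) and from 84.4 to 143 in D1_SS (median 95.9). Mag ran from 2.69 to 23.4 in D1_SC (median 11.1) and from 5.04 to 13.5 in D1_SS (median 7.21). The groups overlap for all 4 genes.

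Each of the 4 calls was lost when some single library of the 37 in the fit was left out. Mobp lost it without 1 library, D1_SC 5, where the change was 0.69 (adjusted p = 0.129). Mbp lost it without any of 4, D1_SC 2, 4 and 9 and D1_SS 3, where it lay between 0.59 and 0.64 (adjusted p = 0.0552 to 0.0739). Mog lost it without any of 12, D1_SC 1, 2, 4, 5 and 9, D1_SS 1, 3, 7, 9 and 10, and D1_CS 3 and 5, where it lay between 0.51 (without D1_SC 1, adjusted p = 0.318) and 1.36. Mag lost it without any of 14, D1_SC 1, 2, 3, 4, 5 and 9, D1_SS 2, 3, 4, 7, 9 and 10, and D1_CS 3 and 5, where it lay between 0.70 and 0.98 (adjusted p = 0.0515 to 0.148). With the failing libraries left out, Mobp stood at 0.40 (adjusted p = 0.336), Mog at 0.00 (adjusted p = 0.993) and Mag at 0.51 (adjusted p = 0.159). Mbp was the 1 gene of the 9 that passed there, at 0.55 ± 0.15 (adjusted p = 0.0323). Libraries with more Drd2 than Drd1, D1_SC 3, 4 and 6 and D1_SS 8 and 9, were still in that fit. Scaling matters too, since with library totals in place of TMM the median over all genes moved from -0.07 to -0.53. In that fit Mbp stood at 0.29, Mobp at 1.08, Mog at 0.84 and Mag at 0.48, none passed, and Cnp and Mal stood below 0, at -0.34 and -0.26. Because these are bulk samples, fewer cells of a type and less RNA per cell cannot be told apart.

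Some genes of other cell types rose in the same comparison, where 9.7% of all genes tested were called higher. The counts of microglia and endothelial genes did not exceed that share. Of 30 other oligodendrocyte and myelin genes 5 rose, among them Fa2h, Myrf, Sox10 and Pllp, 0 fell and the median change was 0.25. Of 12 oligodendrocyte precursor genes 4 rose, among them Nkx2-2, at 2.32 ± 0.52 (adjusted p = 0.0050). Of 12 astrocyte genes 3 rose, among them Slc1a2, the glial glutamate transporter, at 1.54 ± 0.29 (adjusted p = 0.0029). Of 12 microglia genes 1 rose, of 8 endothelial genes 0, of 6 genes of cortical glutamatergic neurons 2, and of 16 medium spiny neuron genes 7, with a median of 0.97. Drd2, the receptor of the other line, was among these 7, at 1.56 ± 0.49 (adjusted p = 0.0332). The summed astrocyte level ran from 119 to 896 CPM in D1_SC and from 231 to 447 in D1_SS, and the part of other nuclei and of the background share in the rise was not tested.

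**Figure D3:**
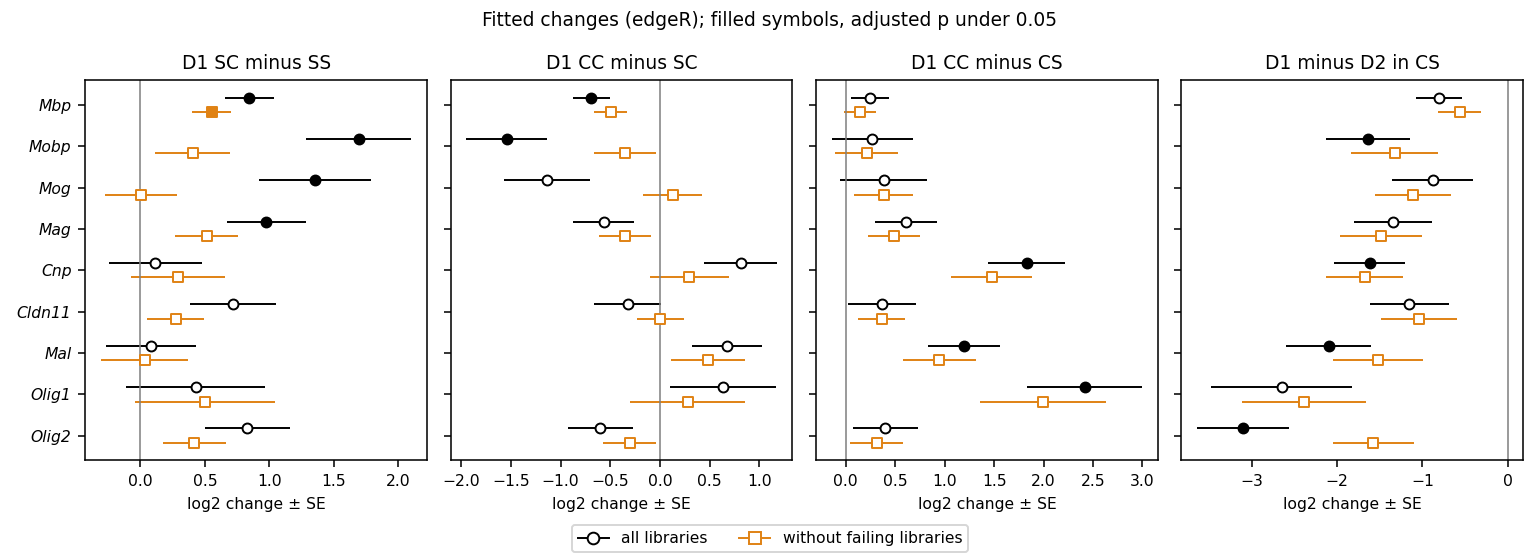
Fitted log2 change ± SE of each of the 9 genes in 4 comparisons, with all libraries (black circles) and with failing libraries left out (orange squares), filled where the adjusted p was under 0.05. In D1 SC minus SS the Mog change goes from 1.35 to 0.00 and the Mobp change from 1.69 to 0.40 when those libraries are left out, and Mbp is the 1 filled square in the 4 comparisons.

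With a cocaine history and a cocaine challenge the D1 line gave another set of genes. Against D1_CS, D1_CC was higher in Cnp, at 1.83 ± 0.39 (adjusted p = 0.0170), Olig1, at 2.41 ± 0.58 (adjusted p = 0.0170), and Mal, at 1.19 ± 0.37 (adjusted p = 0.0348), 3 of 9 genes with 0 lower, where 8.31% of all genes were called, 8.28% higher and 0.0292% lower. Mobp did not pass, at 0.27 ± 0.41, nor did Mbp, at 0.24 ± 0.20. Cnp ran from 14.9 to 90.6 CPM in D1_CC (median 27.5) and from 11.1 to 20.2 in D1_CS (median 16.7), and 9 of 10 libraries lay above the D1_CS mean. Olig1 ran from 0.93 to 8.79 CPM in D1_CC (median 2.02) and from 0.43 to 1.50 in D1_CS (median 0.80), with 10 of 10 above that mean. Mal ran from 15.5 to 48.2 CPM (median 21.1) and from 3.44 to 19.2 (median 16.8). The groups overlap for each gene, and D1_CC 1 and D1_CC 3 are the highest libraries of all 3.

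Those 2 libraries had background shares of 16.1% and 3.66%, and summed medium spiny neuron genes of 8346 and 8906 CPM, against a D1_CS range of 2290 to 7500. Their Mobp, at 21.4 and 19.4 CPM, and Mog, at 8.23 and 6.71, were near the median of all libraries in CPM. The 8.23 of Mog in D1_CC 1 was the highest of its group. In D1_CC 3 Mobp and Mog stood at 21.8 and 19.0 times the even-density background, against medians of 2.06 and 1.49 over all libraries. Without D1_CC 3 Cnp stood at 1.41 and Olig1 at 1.997 (adjusted p = 0.0998 for each) and Mal at 0.90 (adjusted p = 0.186). Without D1_CC 1 they stood at 1.58, 2.003 (adjusted p = 0.0651 for each) and 0.94 (adjusted p = 0.142). Mal also missed the threshold without any of D1_CS 1, 2, 4, 6, 7 and 8 (adjusted p = 0.0505 to 0.0718), at changes of 1.17 to 1.24, about those of the full fit. Without the failing libraries Cnp stood at 1.48 (adjusted p = 0.280). Of the 30 other oligodendrocyte genes 4 rose, among them Ermn, Qdpr and Car2, a carbonic anhydrase, at 1.29 ± 0.32 (adjusted p = 0.0170). Of the 16 medium spiny neuron genes 7 rose, with a median of 1.02, and of the 12 astrocyte genes 1, Aldoc. Over all genes tested 8.28% were called higher, about the share of the astrocyte list.

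Between the 2 cocaine challenge groups of the D1 line, D1_CC was lower than D1_SC in 2 genes. Mobp fell by 1.54 ± 0.41 (adjusted p = 0.0133) and Mbp fell by 0.69 ± 0.19 (adjusted p = 0.0170), 2 of 9 lower and 0 higher, where 10.5% of all genes were called, 2.62% higher and 7.86% lower. This comparison shares the D1_SC libraries with the one above, the 192 CPM of Mobp included. Without D1_SC 5 the Mobp change was -0.56 (adjusted p = 0.198), and its adjusted p was 0.0508 without D1_SC 9 and 0.0502 without D1_CS 5. Mbp lost its call without any of 8 libraries, D1_SC 1, 2, 4, 5 and 9, D1_SS 3 and D1_CS 3 and 5, where it lay between -0.52 and -0.44 (adjusted p = 0.0619 to 0.124). Without D1_CC 3, Mog and Mag passed as well. Mobp in D1_CC was narrow, from 18.3 to 23.9 CPM (median 20.9), inside the D1_SC range, and 0 of 10 libraries lay above the D1_SC mean of 48.7 ± 59.99 CPM (SD, n = 9). The other 7 genes ran from -1.14 (Mog, adjusted p = 0.0739) to 0.81 (Cnp, adjusted p = 0.120). Of the 30 other oligodendrocyte genes 1 rose and 3 fell. Genes of other cell types fell as well, 3 of 12 astrocyte genes (Slc1a2, Sox9 and Agt), 3 of 12 precursor genes, 3 of 6 cortical glutamatergic neuron genes (Neurod2, Slc17a7 and Tbr1) and 1 of 12 microglia genes (P2ry12), and none of these 4 lists had a gene that rose. The microglia count lies near the 7.86% of all genes called lower. The part of other nuclei in the fall was not tested.

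A history of cocaine alone, or with the challenge, gave no called gene against D1_SS. In D1 CS minus SS, 0 of 9 passed and 0% of all genes were called by edgeR, with 2 of 9 at an unadjusted p under 0.05 (Cnp at -0.90 and Olig1 at -1.35), 0 by DESeq2 and 2 by limma with library weights, which called 43.9% of all genes. The 8 D1_CS values of Cnp ran from 11.1 to 20.2 CPM, all under the D1_SS mean of 28.8 ± 10.9 (SD, n = 10). In D1 CC minus SS, 0 of 9 passed with 0% of all genes called, 3 of 9 at an unadjusted p under 0.05 (Cnp at 0.93, Mal at 0.76 and Olig1 at 1.06), and 0 by DESeq2 or limma. Mobp stood at -0.11 and 0.15 in the 2 comparisons. The fitted changes of Cnp and Olig1 thus have opposite signs in these 2 comparisons, and neither passed. By library the Cnp values are less clear, with a D1_CC median of 27.5 CPM under the D1_SS median of 30.1 and 4 of 10 D1_CC libraries above the D1_SS mean.

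No comparison within the D2 line called any of the 9 genes. In D2 SC minus SS 0% of 36090 genes were called by edgeR, and 1 of the 9 genes had an unadjusted p under 0.05, Olig1 at 2.75 ± 0.81 (adjusted p = 0.699). Olig1 in D2_SC was 87.5 and 67.1 CPM in D2_SC 1 and 2, and at most 6.09 in the other 7 libraries. In D2 CS minus SS, with 0.0859% of genes called, Olig2 stood at 2.41 ± 0.60 (adjusted p = 0.0745; it passed without any of D2_CS 1, 2, 7, 8 and 10) and Mobp at 1.22 ± 0.49 (adjusted p = 0.653). In D2 CC minus CS, with 0.252% called, all 9 genes were below 0, from -2.49 ± 0.60 for Olig2 (adjusted p = 0.0519, and under the threshold without any of 8 libraries) to -0.59 for Mbp (adjusted p = 0.624), and 6 had an unadjusted p under 0.05. D2 CC minus SS and D2 CC minus SC, with 0% called in each, ran from -1.13 to -0.08 and from -3.88 to 0.40, with 0 and 1 of the 9 at an unadjusted p under 0.05. DESeq2 called 0 of 9 in each of these 5 comparisons, and limma with library weights called 1 in D2 CS minus SS and 2 in D2 CC minus SS, where it called 11.5% and 23.3% of all genes. Mobp stood at -0.09 in CC minus SS, -1.31 in CC minus CS, -0.70 in CC minus SC and 0.60 in SC minus SS.

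Between lines, no difference in any of the 9 genes passed the threshold in the saline groups. In D1 minus D2 in SS, 0 of 9 passed where 0.0255% of 39250 genes were called, 0 had an unadjusted p under 0.05, and DESeq2 and limma called 0. All 9 changes were below 0: Mbp -0.23 ± 0.25, Mobp -0.28 ± 0.45, Mog -0.27 ± 0.43, Mag -0.53 ± 0.41, Cnp -0.34 ± 0.38, Cldn11 -0.50 ± 0.42, Mal -0.60 ± 0.44, Olig1 -0.77 ± 0.68 and Olig2 -0.53 ± 0.46 (SE; adjusted p = 1.00 for each). D2_SS 4 was the highest of its group for Mbp (250 CPM), Mal (85.9), Cnp (84.4), Mag (35.8) and Cldn11 (30.9), and its summed astrocyte genes stood at 1144 CPM.

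After repeated cocaine and a saline challenge the D1 line was lower than the D2 line in 4 genes. They were Olig2, at -3.10 ± 0.54 (adjusted p = 0.0002), Mal, at -2.10 ± 0.50 (adjusted p = 0.0072), Cnp, at -1.62 ± 0.42 (adjusted p = 0.0151), and Mobp, at -1.63 ± 0.49 (adjusted p = 0.0431), with 3.59% of all genes called, 0.0459% higher and 3.55% lower. The smallest of the 9 changes was that of Mbp, -0.80 (adjusted p = 0.0721). Olig2 ran from 1.50 to 2.13 CPM in D1_CS (median 1.80) and from 0.73 to 54.3 in D2_CS (median 3.04). Mal ran from 3.44 to 19.2 CPM and from 11.4 to 133, with medians of 16.8 and 22.3. In D2_CS 5 of 10 libraries failed the quality rule, and all 10 are in the test. Among them are D2_CS 6 and 9, with 26297 and 19980 counts. The groups overlap, and D2_CS 3, which failed the quality rule, holds the highest Olig2, Mal and Mbp. Without it Olig2 was the 1 gene that passed, at -1.62 (adjusted p = 0.0350). Cnp also missed the threshold without D2_CS 1 (-1.33, adjusted p = 0.0755), and Mobp without any of 9 others, D1_CS 1, 2, 4, 5, 6, 7 and 8 and D2_CS 4 and 5 (-1.66 to -1.36, adjusted p = 0.0661 to 0.122). Without D2_CS 8 or 10, both of the same group, 7 genes passed. Without all failing libraries none did, with Olig2 at -1.57 (adjusted p = 0.390), Mal at -1.52, Mobp at -1.33 and Cnp at -1.67. The Cnp change was thus about as large as with all libraries, and 21 genes in all were called in that fit, against 1410.

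Genes of several other cell types were lower beside them, where 3.55% of all genes tested were called lower. Of 12 astrocyte genes 6 were lower (median -1.38), and of 30 other oligodendrocyte genes 8 (median -0.56), while 3 of 16 medium spiny neuron genes were, Adora2a, Drd2 and Penk, which mark D2 neurons. Slc1a3, a glial glutamate transporter, stood at -1.55 ± 0.37 (adjusted p = 0.0081). Of 8 endothelial genes 2 were lower, Cldn5 at -3.16 and Itm2a at -2.20, and of 12 precursor genes 1, Bcan at -2.32. Of 12 microglia genes and 6 cortical glutamatergic neuron genes 0 were lower, and no list had a gene called higher. The summed astrocyte genes ran from 131 to 362 CPM in D1_CS and from 222 to 1830 in D2_CS. The part of astrocyte and other nuclei in the difference was not tested.

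In the remaining comparisons between lines, D1_SC was lower than D2_SC in Olig1 alone, at -3.06 ± 0.76 (adjusted p = 0.0220), 1 of 9 where 1.17% of genes were called, 0.762% higher and 0.408% lower. Without D2_SC 1 it stood at -2.005 (adjusted p = 0.250), it also missed the threshold without D2_SC 2, and without the failing libraries its sign changed, to 0.14. Mobp stood at 0.88 there, and the 9 genes reached 1.15 (Mog). In CC none of 9 passed where 0.0204% of genes were called, 2 had an unadjusted p under 0.05 (Cnp at 1.10, adjusted p = 0.186, and Olig1 at 1.43), DESeq2 called 0 and limma with library weights 1, with 4.93% of all genes. The lowest of the 9 in CC was Olig2 at -0.22, and Mobp stood at 0.01.

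The difference between the lines' changes was tested too, in the SC, CS and CC groups against SS. The D1 change and the D2 change differed past the threshold for none of the 9 genes in any of the 3, where 0.028%, 0.0892% and 0% of genes were called. For SC the values ran from -2.29 (Olig1) to 1.42 (Mog), with 1.16 ± 0.65 for Mobp (adjusted p = 0.967). For CS all 9 were below 0, from -2.57 ± 0.70 for Olig2 (adjusted p = 0.131) to -0.58 for Mbp, with -1.35 for Mobp. For CC all 9 were above 0, from 0.28 for Mbp to 2.21 for Olig1 (adjusted p = 0.820), with 0.29 for Mobp. At an unadjusted p under 0.05 there were 2, 4 and 3 genes, and DESeq2 and limma called 0 in each. A gene called in the D1 line and not in the D2 line was thus not shown to differ between them.

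Across 71 libraries the 9 genes did not move as 1 group. Spearman's rho of CPM was 0.78 between Mbp and Mobp, 0.77 between Mobp and Mog, 0.79 between Mobp and Cldn11, 0.81 between Mal and Cldn11 and 0.75 between Mag and Olig2. Cnp had rho of 0.05 to Mobp, 0.16 to Olig2, 0.18 to Mbp and 0.19 to Mog, 0.34 to Cldn11 and 0.35 to Mag, 0.58 to Mal and 0.81 to Olig1. With the even-density background subtracted these were 0.25, 0.33, 0.47, 0.51, 0.51, 0.55, 0.64 and 0.85 in that order, so the distance of Cnp from most of the others was smaller on that scale. These are descriptions over libraries that share depth and background differences, and no p is given.

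**Figure D4:**
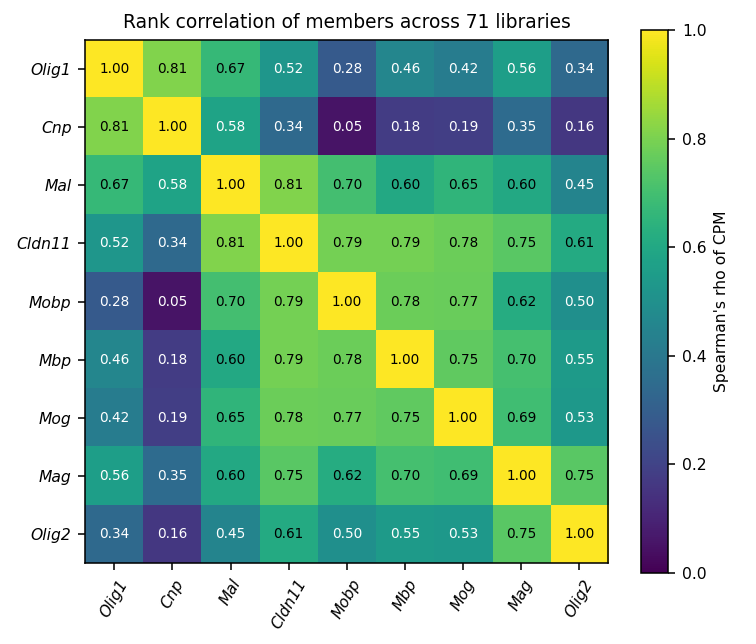
Spearman's rho of CPM between each pair of the 9 genes across 71 libraries (colour scale 0 to 1, values printed in the cells). Cnp and Olig1 pair at 0.81 and Cnp and Mobp at 0.05, while Cldn11, Mobp, Mbp and Mog are linked by values of 0.75 to 0.79.

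Values of CPM were also set against the summed levels of other lists. With the sum of 30 other oligodendrocyte genes rho was 0.93 for Mobp, 0.82 for Cldn11, 0.77 for Mog and 0.76 for Mbp, but 0.29 for Olig1 and 0.05 for Cnp. With the sum of 12 astrocyte genes it was 0.84 for Mal, 0.83 for Mobp, 0.81 for Cldn11 and 0.32 for Cnp. With the sum of 16 medium spiny neuron genes it was -0.70 for Mobp and 0.27 for Cnp, and with the background share 0.49 for Mobp and -0.32 for Cnp. On the CPM scale Mobp was thus higher where astrocyte genes were higher and neuronal genes lower, and Cnp followed neither closely. The even-density background would account for a median of 48.5% of the Mobp value and 20.6% of that of Cnp. The sums hold background too, no rho to them was taken with it subtracted, and its part in the pattern was not tested.

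**Figure D5:**
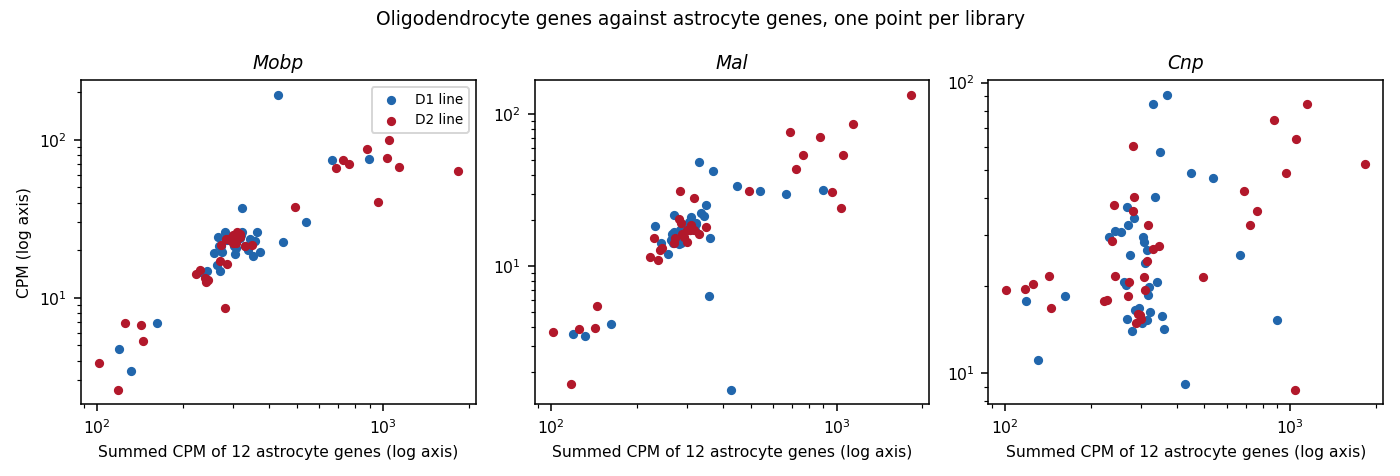
CPM of Mobp, Mal and Cnp against the summed CPM of 12 astrocyte genes (both axes log), 1 point per library, D1 line in blue and D2 line in red. Mobp and Mal rise with the astrocyte sum (rho of 0.83 and 0.84), with D1_SC 5 far above the trend for Mobp, and Cnp is spread widely at any astrocyte level (rho of 0.32).

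The libraries with the most oligodendrocyte RNA were few and were mostly of the D2 line. D2_CS 5 was among the 8 highest of 72 libraries for all 9 genes, D2_SS 4 for 8, D2_SC 1 and D2_SC 5 for 7 each, D1_SC 1 and D2_CS 3 for 6 each, and D2_CC 7 and D2_SC 2 for 5 each. Their summed astrocyte genes were 1050, 1144, 878, 764, 896, 1830, 724 and 963 CPM in that order, against group medians of 269 to 492.7 CPM. D1_CC 1 and D1_CC 3, which were high for Cnp, had astrocyte sums of 330 and 371 CPM, near those medians. Of these 8 libraries D2_SS 4 had saline throughout, and the others came from D2_SC, D2_CS, D2_CC and D1_SC, groups with cocaine at 1 or both steps. Whether such libraries go with the treatment was not tested.

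Genes known from glia were among those whose pattern was most like the mean of the 9, out of 19253 genes with a mean of 5 CPM or more. By Pearson's r across 71 libraries the nearest included Gm13872 (0.89), Gja1 (0.85), S1pr1 (0.85), Fam107a (0.83), Gatm (0.83), Selenop (0.83), Eps15 (0.82), Hepacam (0.81) and Slc2a1 (0.81). Gja1, the astrocytic connexin, and Hepacam are known from astrocytes, and Slc2a1 is the glucose transporter of the blood vessel wall. Taken gene by gene, a choice made after the values were seen, Mobp was nearest to Htra1 (0.93) and Slc1a3 (0.92), and Mog to Enpp2 (0.83) and Opalin (0.80), the last of these a myelin gene. Cnp was nearest to Vcp (0.91), Mir5114 (0.90) and Fth1 (0.90), of which Vcp and Fth1 are used by most cells.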

How the data were processed

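Sorted-nuclei RNA of 75 libraries was counted per gene by the authors. The submitters' processing notes name featureCounts, DESeq2 and mm10; versions, aligner, annotation and strand setting are not given in the sources used here. Per the labels' protocols, stranded total RNA libraries were made with a low-input SMARTer kit. The deposited counts are whole numbers. The deposited FPKM values equal count over library total and GENCODE M21 gene span for 54271 of 54271 identifiers compared, and served for lengths and levels only.

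The main test was edgeR's two-sided quasi-likelihood test (version 4.0.16, R 4.3.3) after filterByExpr by group and TMM scaling, and p-values were adjusted by Benjamini and Hochberg's method across every gene of the fit (threshold 0.05). The 4 groups of a line were fitted together (37721 genes in D1, 36090 in D2) and all 8 groups for comparisons across lines (39250 genes), 17 comparisons in all. The SE comes from the change and the F statistic. CPM uses library totals. Levels rest on 72 libraries over 100000 counts and correlations on 71 over 1000000. The even-density background is the pooled read density over 1136 of 1420 olfactory and vomeronasal receptor genes, 10% trimmed at each end, times gene length. The edgeR fit of the D1 line was also run on simulated counts, for D1 SC minus SS alone. The simulated libraries shared a common mean profile apart from the changes put in. That run therefore does not bear on outlying libraries or on a background that differs between groups.

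A library failed the quality rule by depth (13 libraries), genes detected (1), Drd1 to Drd2 ratio (5) or correlation with its line (8). Alternatives were RLE scaling, library totals, no low-count filter, DESeq2 1.42.0, limma 3.58.1 with library weights, a replicate block, omission of failing, shallow or single libraries, and background subtraction. All 9 genes are named; others are those with the smallest p in their list, or nearest to the mean pattern of the 9. The genes and lists were chosen with earlier results of these data known. Some genes of these lists are not reported here.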

Additional observations from a re-analysis of the deposited data

Results flagged for a closer look

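In a search of 72 gene and group pairs for a library whose distance to the next one is large against the range of its group, 23 values in 9 libraries stood out. Chance gives about 1 in 20 groups for independent values that follow a normal distribution. The CPM values were not tested for that, and the genes share their libraries, so the 23 cannot be weighed against that rate.

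D2_SS 4 accounted for 8 of them, with 250 CPM of Mbp, 67 of Mobp, 35.8 of Mag, 84.4 of Cnp, 30.9 of Cldn11, 85.9 of Mal, 15.4 of Olig1 and 8.25 of Olig2, all above the rest of D2_SS. D2_CC 7 accounted for 4, with 179 CPM of Mbp, 74.2 of Mobp, 18.2 of Cldn11 and 43.5 of Mal. Both libraries passed the quality rule, and their summed astrocyte genes, 1144 and 724 CPM, were the highest of their groups.

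The library labelled D1_SC 1 stood out for Mog at 54.5 CPM, Cldn11 at 38.9 and Olig2 at 9.14, and the library labelled D1_SC 5 for Mobp at 192. In D2_CS 3 it was Olig2 at 54.3 CPM. D1_CS 3 was low for Mobp at 3.44 CPM, Mal at 3.44 and Mog at 0.599. The remaining values were Mal at 33.4 CPM in D1_SS 5, Mobp at 36.9 in D1_SS 8 and Mog at 8.23 in D1_CC 1.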

How the results depend on the processing

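The number of the 9 genes called depended on scaling and on libraries. In D1 SC minus SS, 4 with all libraries became 2 with RLE scaling, 1 with limma weights, the replicate block, or omission of failing or shallow libraries, and 0 with library totals or background subtraction. In D1 CC minus CS, 3 became 0 with library totals, without failing libraries and with background subtraction. In D1 CC minus SC, 2 became 1 with limma weights or background subtraction, and 0 with library totals, the replicate block, or without failing or shallow libraries. In D1 minus D2 in CS, 4 became 1 with RLE scaling, library totals or DESeq2, and 0 with limma weights, without failing or shallow libraries, or with background subtraction. In D1 minus D2 in SC, 1 became 0 with limma weights, the replicate block, without failing or shallow libraries and with background subtraction. Limma weights called 2 in D1 CS minus SS, 1 in D2 CS minus SS, 2 in D2 CC minus SS and 1 in D1 minus D2 in CC, each 0 with all libraries by edgeR. The causes were not tested.

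Leaving out 1 library at a time gave 1 (without D1_SC 2) to 5 in D1 SC minus SS, 0 (without D1_CC 1) to 3 in D1 CC minus CS, 0 (without D1_CS 5) to 4 (without D1_CC 3) in D1 CC minus SC, and 0 to 1 (Olig2, without any of 5 and of 8 libraries, D2_CS 1 among both) in D2 CS minus SS and D2 CC minus CS. It gave 0 (without D2_SC 1) to 1 in D1 minus D2 in SC and 1 (without D2_CS 3) to 7 (without D2_CS 8) in D1 minus D2 in CS, the last 2 sets added after seeing the data. The other 5 within-line comparisons stayed at 0.

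In D1 SC minus SS, signs changed for Mog with limma weights (-0.090). They changed for Cnp with RLE scaling (-0.044), library totals (-0.34), DESeq2 (-0.046) and background subtraction (-0.32), and for Mal with RLE scaling (-0.019), library totals (-0.26), DESeq2 (-0.023) and the replicate block (-0.12). Single libraries left out moved Cnp from -0.074 to 0.25 and Mal from -0.14 to 0.24. Mag in D1 minus D2 in SS went to 0.00481 with limma weights, and Olig1 in D1 minus D2 in SC to 0.13 with limma weights, 0.14 without failing and 0.17 without shallow libraries. Same-numbered libraries deviated together (r over 0.1) in 18 of 52 D1 pairs and 21 of 48 D2 pairs. Their median r was -0.03 and 0.03, against 0.010 and 0.014 for pairs of different number and group. The medians thus show no pairing by number over all pairs. Whether some numbers share a batch was not tested.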
